A study of Sus scrofa with 6 samples.

Results

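Retinoids act in the nucleus through a small group of ligand-activated transcription factors, and the genes of that group are described here in porcine granulosa cells (GCs), the somatic cells that surround the oocyte. The rule named 7 genes, namely the retinoic acid receptors *RARA*, *RARB* and *RARG*, the retinoid X receptors *RXRA*, *RXRB* and *RXRG*, and the RAR-related orphan receptor *RORA*. They were listed by gene name, and 6 of them were matched among the 17950 genes of the table. *RXRA* was not matched and is not analysed here.

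GCs from ovaries of prepubertal Landrace gilts were infected for 72 h with lentiviral particles. The pLVX-*RBP4* group received the pLVX-IRES-ZsGreen vector carrying full-length porcine *RBP4*, and the CTRL group received the same vector without *RBP4*, so that both groups carried ZsGreen. RBP4 is the plasma carrier of retinol, and the comparison asks how GCs respond when they express it from a lentivirus. Each group had 3 libraries, which the authors combined into 1 value per gene and group, in FPKM (fragments relative to transcript length and to all mapped fragments), so the fragments behind a value and the spread between replicates cannot be read from the table and no test between the groups could be made. Sequencing depth was not the same, with more mapped reads in each pLVX-*RBP4* library than in any CTRL library. Ovaries came from a slaughterhouse, and how many animals stand behind a library is not given in the sources used here.

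Retinoic acid, made inside the cell from retinol, is the ligand of the 3 RARs. A RAR binds DNA as a heterodimer with an RXR at pairs of a short repeated motif called retinoic acid response elements. Without ligand the heterodimer is held with corepressors such as NCOR1, and with ligand it exchanges them for coactivators such as the NCOA proteins. RXRs also pair with the vitamin D receptor, the PPARs, the liver X receptors and other nuclear receptors. In the ovary, retinoids are known to bear on follicle growth, steroid synthesis and oocyte maturation. RORA is related to the RARs in sequence and drives genes of the circadian clock, but it binds DNA mostly as a monomer and retinoic acid is not its usual ligand.

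*RBP4* itself had 1.10 FPKM in CTRL and 92.3 FPKM in pLVX-*RBP4*, and this value includes the introduced sequence. In the following, a pair of values gives CTRL first and pLVX-*RBP4* second. The cells were checked against marker genes. Of 16 granulosa markers, 8 were matched, all with a mean of 1 FPKM or more, and they summed to 1675 FPKM in CTRL and 1834 FPKM in pLVX-*RBP4*. *CYP11A1*, which makes pregnenolone from cholesterol, had 672.9 and 669.4 FPKM, and *FSHR*, the receptor for follicle-stimulating hormone, had 9.99 and 8.47 FPKM. Of the 8, 4 were higher and 4 lower, and most of the difference between the sums came from *GJA1*, a gap junction protein, with 675.1 and 813.8 FPKM (1.21-fold). *AMH*, *CYP19A1* and *FOXL2*, which also define granulosa cells, were not matched. The 6 fibroblast markers matched of 8 summed to 794.3 and 931.1 FPKM, most of it *COL3A1* with 525.1 and 611.2 FPKM, and none was at 0. In pLVX-*RBP4* 4 of them were higher, 2 by at least 1.2-fold, where 11.0% of the background genes were. The other 2, *PDGFRA* and *PDGFRB*, were lower. The 5 leukocyte markers matched of 7 summed to 47.8 and 54.2 FPKM, most of it *CD14* with 42.9 and 48.9 FPKM, while *PTPRC*, which marks all leukocytes, had 0.229 and 0.166 FPKM. The 2 endothelial markers matched of 6 summed to 19.9 and 19.0 FPKM, the 3 theca markers matched of 4 to 2.14 and 2.04 FPKM with *INSL3* at 0 in the CTRL group, and the 3 oocyte markers matched of 8 to 3.36 and 3.57 FPKM. Nearly all of the oocyte sum was *GDF9*, with 3.36 and 3.51 FPKM, while *NOBOX* was at 0 in both groups and *DDX4* at 0 in the CTRL group. The part that other cell types played in the values below was not tested. In bulk RNA, fewer cells of a type and less RNA per cell cannot be told apart.

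*RARA* was the main retinoic acid receptor transcript of these cells. It had 71.7 FPKM in CTRL and 63.1 FPKM in pLVX-*RBP4*, and its mean level of 67.4 FPKM lay at or above that of 87.2% of the 12382 genes with a mean of 1 FPKM or more, the genes used as background throughout. *RARG*, the receptor best known from skin and cartilage, had 9.92 and 9.86 FPKM. *RARB*, whose own promoter carries a retinoic acid response element in other mammals and which is a classical target of retinoic acid, had 6.34 and 7.13 FPKM. Of the summed RAR level, *RARA* made up 81.5% in CTRL and 78.8% in pLVX-*RBP4*, *RARG* 11.3% and 12.3%, and *RARB* 7.20% and 8.89%.

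*RXRB* was the retinoid X receptor with a clear signal among those matched. It had 19.2 FPKM in CTRL and 19.8 FPKM in pLVX-*RBP4*, a level at or above that of 63.1% of the background genes. *RXRG*, known mainly from muscle, brain and retina, was listed at 0 in CTRL and had 0.0186 FPKM in pLVX-*RBP4*. Only 1.39% of the 16471 genes above 0 in pLVX-*RBP4* had a value that low or lower, so no difference is read from it. The total RXR level is not known without *RXRA*. *RORA* was weakly expressed, with 1.40 FPKM in CTRL and 1.08 FPKM in pLVX-*RBP4*, and its mean level lay at or above that of 2.53% of the background genes.

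**Figure D1:**
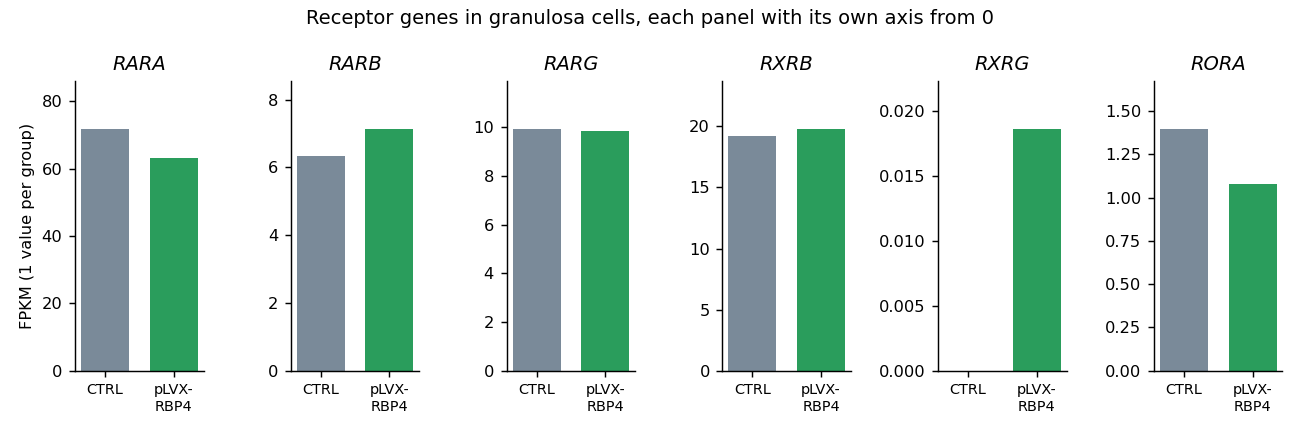
FPKM of the 6 receptor genes in the CTRL group (grey) and the pLVX-*RBP4* group (green), with 1 bar for the authors' value per group, no error bar, and an axis from 0 for each gene. *RARA* stands highest at 71.7 and 63.1 FPKM, *RXRG* lowest at 0 and 0.0186 FPKM, and the bars of a pair differ most by ratio for *RORA* among the genes above 0 in both groups.

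The order of the levels was the same in both groups, from *RARA* through *RXRB*, *RARG*, *RARB* and *RORA* to *RXRG*. FPKM is scaled to transcript length, so levels of different genes can be set side by side. *RARA* stood 3.74-fold above *RXRB* in CTRL and 3.20-fold above it in pLVX-*RBP4*. *RXRB* stood 1.93-fold above *RARG* in CTRL and 2.0-fold above it in pLVX-*RBP4*. The closest neighbours were *RARG* and *RARB*, 1.57-fold apart in CTRL and 1.38-fold apart in pLVX-*RBP4*. *RARB* stood 4.54-fold and 6.59-fold above *RORA*. Whether any of these neighbours differ beyond the spread between libraries cannot be told from 1 value per group.

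Between the groups the differences of the receptor genes stayed below 1.2-fold on the scale used here. The difference was taken on the log2(FPKM + 1) scale as the pLVX-*RBP4* value minus the CTRL value, which makes differences of weak genes look smaller than they are. Of the 5 genes with a mean of 1 FPKM or more, 0 reached a 1.2-fold difference in either direction on this scale, against 19.6% of the background genes. A 2-fold difference was reached by 0 of the 5, against 0.953% of the background genes. With only 5 genes, a count of 0 is not far from either share. The 19.6% were 1364 genes higher and 1069 lower in pLVX-*RBP4*, a split that became 2138 and 597 with a common sum, or 669 and 2568 with a common sum taken without the gene of the highest value. With a smaller pseudocount or none, *RORA* passed the 1.2-fold limit, since its CTRL value was 1.29-fold the other, and so did *RARA* and *RORA* after rescaling to a common sum without the gene of the highest value. The differences of the 5 genes ran from -0.20 to 0.15 around a median of -0.0087, and the median over the background genes was 0.0014.

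*RARA* and *RORA* were lower in pLVX-*RBP4*. For *RARA* the ratio of the pLVX-*RBP4* to the CTRL value was 0.881 and the log2(FPKM + 1) difference was -0.18, a value at or above that of 16.4% of the background genes. Abundant genes scattered less than weak ones, so the ratio was also read among genes of like level. Between a mean FPKM of 50 and 100, the log2 ratios of 979 genes above 0 in both groups ran from -0.16 at the 10th percentile to 0.28 at the 90th, and the log2 ratio of *RARA*, -0.18, was lower than those of 91.3% of them. For *RORA* the ratio was 0.775 and the log2(FPKM + 1) difference -0.20, but between a mean FPKM of 1 and 2 the 10th percentile of the log2 ratios was -0.57, and 21.2% of the 1106 genes there were lower than *RORA*, with its log2 ratio of -0.37. The larger fold difference of *RORA* was thus the less unusual for its level. *RARA* and *RORA* were lower under each of the alternative scalings. A change of pseudocount or filter cannot turn the direction of a difference, so those alternatives say nothing about it.

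*RARB* was the receptor gene whose value stood most above that of the CTRL group. Its ratio was 1.12 and its log2(FPKM + 1) difference 0.15, at or above that of 76.5% of the background genes. Of the 2271 genes between a mean FPKM of 5 and 10, 20.7% had a higher log2 ratio than *RARB*, so its difference was an ordinary one for its level. *RARG* and *RXRB* had nearly the same value in both groups, with ratios of 0.993 and 1.03 and log2(FPKM + 1) differences of -0.0087 and 0.039. Absolute differences as large as that of *RARG* or larger were found in 96.6% of the background genes. The direction of both depends on the scaling. *RARG* was higher in pLVX-*RBP4* after rescaling to a common sum, and *RXRB* was lower after the same step without the gene of the highest value.

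**Figure D2:**
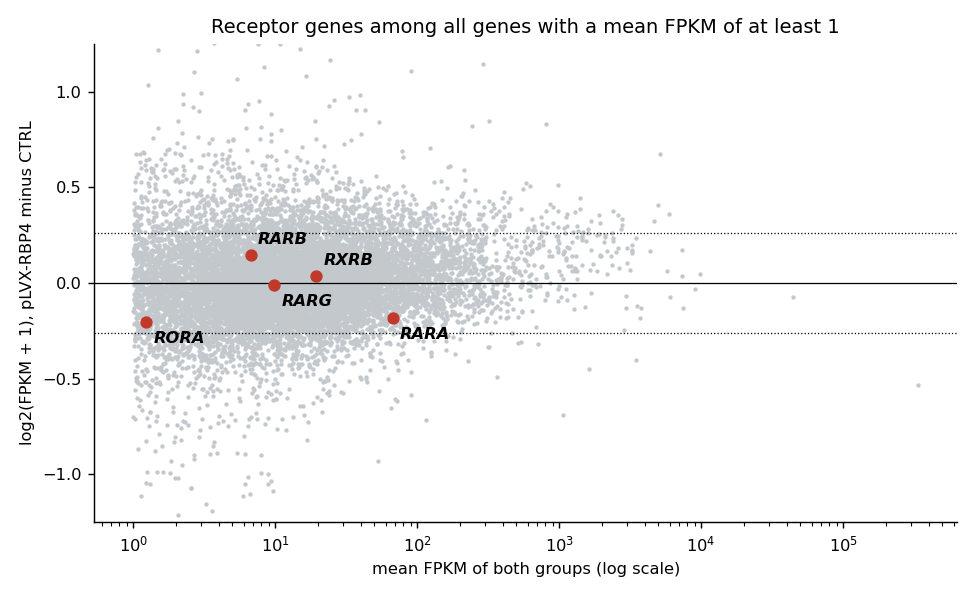
Difference of log2(FPKM + 1) between the pLVX-*RBP4* and CTRL groups (vertical axis) against the mean FPKM of both groups (horizontal axis, log scale) for the background genes (grey points) and the 5 receptor genes with a mean of 1 FPKM or more (red points). Dotted lines mark a 1.2-fold difference, 89 genes lie beyond the vertical limits, and the red points all lie between the dotted lines, from -0.20 for *RORA* to 0.15 for *RARB*.

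Ratios between receptor genes of the same group do not depend on how the groups are scaled against each other. *RARA* exceeded *RARB* 11.3-fold in CTRL and 8.86-fold in pLVX-*RBP4*, and it exceeded *RARG* 7.23-fold and 6.41-fold. Sums compared between the groups do depend on the scaling. The summed RAR level was 88.0 FPKM in CTRL and 80.1 FPKM in pLVX-*RBP4*, a ratio of 0.911, and *RARA* alone differed by more FPKM than the sum did. This ratio was 0.963 after rescaling to a common sum and 0.839 after the same step without the gene of the highest value. *RXRB* with *RXRG* had a ratio of 1.03 between the groups, which became 1.09 and 0.948 under these steps, so its direction turned.

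The receptors were then placed among the other nuclear receptors. Of 48 nuclear receptor genes listed by name, 39 were matched and 28 had a mean of 1 FPKM or more. *RARA* had the highest value of the 39 in both groups, 1.54-fold above the second, *NR1H2* (liver X receptor beta), in CTRL and 1.33-fold above it in pLVX-*RBP4*. *RXRB* ranked 12th in both groups, *RARG* 16th and 15th, *RARB* 19th and 18th, and *RORA* 27th in both. Among the 28 genes the difference of *RARB* was the highest, and it kept this rank under each of the alternatives. Filters change no value and a scaling shifts all genes nearly alike, so under these the rank could hardly have changed. Values were lower in pLVX-*RBP4* for 19 of the 28 genes, with a median difference of -0.085, and 49.8% of the background genes were lower. The count of 19 depends on the scaling, with 15 after rescaling to a common sum, where 35.1% of the background genes were lower, and 27 after the same step without the gene of the highest value, where 69.9% were.

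**Figure D3:**
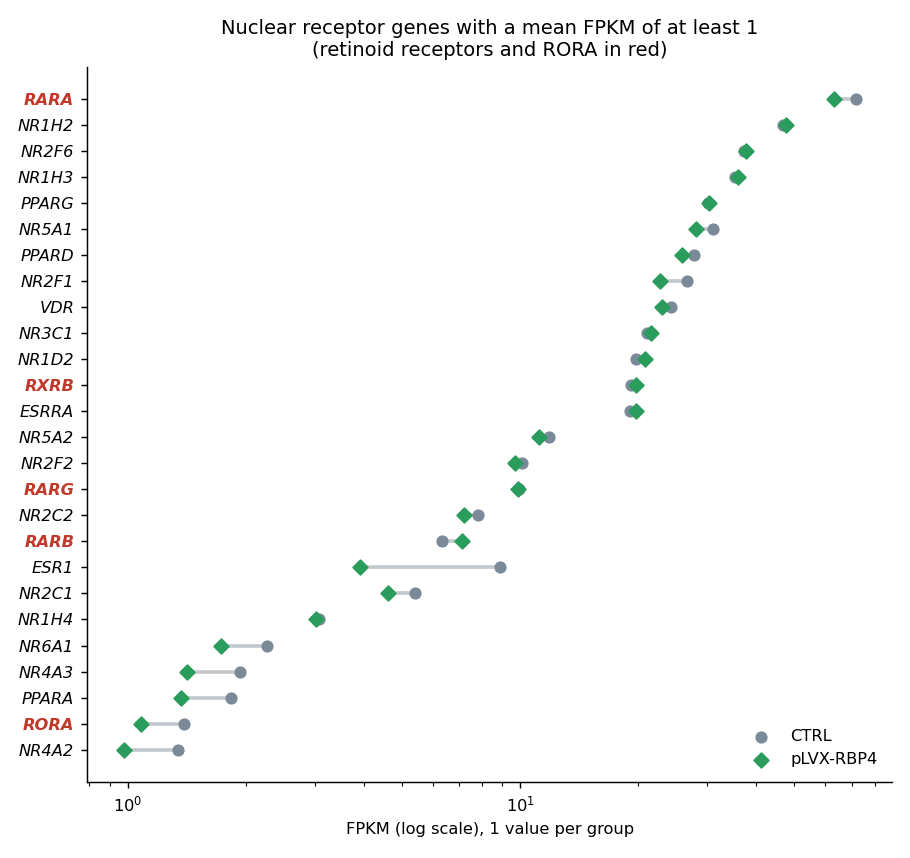
FPKM (log scale) of 26 of the 28 nuclear receptor genes with a mean of 1 FPKM or more in the CTRL group (grey circles) and the pLVX-*RBP4* group (green diamonds), ordered by mean level, with the retinoid receptors and *RORA* in red. *RARA* tops the list, *RORA* is next to last, and the widest gap between the groups among those drawn is that of *ESR1*.

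The receptors closest in level were found as the smallest distance over both group values on the log2(FPKM + 1) scale. With only 2 values per gene this measures level and difference together and nothing more. *RXRB* was closest to *ESRRA*, the estrogen-related receptor alpha, with 19.1 and 19.7 FPKM (distance 0.0089), and next to *NR1D2* (0.080). *RARG* was closest to *NR2F2*, which encodes COUP-TFII, with 10.1 and 9.74 FPKM (0.033), and next to *NR5A2* (0.29). *RORA* was closest to *NR4A2* (0.081). *RARB* was closest to *NR2C2* (0.26) and *NR2C1* (0.57), which encode testicular receptors. *RARA* had no close neighbour, with *NR1H2* at a distance of 0.73 and *NR2F6* at 1.18.

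Partners that share RXR were well represented. Of 13 partner genes, 10 were matched and 8 had a mean of 1 FPKM or more. Of these, 3 were higher and 5 lower in pLVX-*RBP4*, where 49.8% of the background genes were lower. On the log2(FPKM + 1) scale a 1.2-fold difference was reached by 0, against 19.6% of the background genes, and the median difference was -0.045. After rescaling to a common sum 5 were higher and 3 lower, where 35.1% of the background genes were lower. After upper quartile scaling all 8 were lower, where 56.6% of the background genes were. The liver X receptors, which sense oxysterols, were the most abundant, with 46.7 and 47.6 FPKM for *NR1H2* and 35.3 and 35.8 FPKM for *NR1H3*. They also had the highest differences of the list, 0.026 and 0.019, both of which were negative after upper quartile scaling and after rescaling without the gene of the highest value. *PPARG*, a regulator of lipid metabolism, had 30.0 and 30.4 FPKM, and *VDR*, the vitamin D receptor, had 24.2 and 23.0 FPKM. The lowest differences were those of *PPARA* (1.83 and 1.37 FPKM, -0.26) and *NR4A2* (1.34 and 0.977 FPKM, -0.25), both not far above the limit of 1 FPKM for background genes. Their ratios were 0.747 and 0.727, so the pseudocount kept them below 1.2-fold. Without a pseudocount their differences were -0.42 and -0.46, past 1.2-fold. After upper quartile scaling they were -0.279 and -0.264, also past it.

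Corepressors and coactivators were mostly lower. Of 11 corepressor genes, 10 were matched, and 9 of them were lower in pLVX-*RBP4*, where 49.8% of the background genes were, 2 of these by at least 1.2-fold, where 8.63% of the background genes were. Their median difference was -0.15. *NCOR1*, a main corepressor of unliganded RAR, had 31.7 and 26.1 FPKM (-0.27), and its difference was -0.19, short of 1.2-fold, after rescaling to a common sum. The lowest difference was that of *LCOR*, a ligand-dependent corepressor (2.23 and 1.55 FPKM, -0.34). *HDAC3*, the deacetylase of the NCOR complex, was the single gene of the list with a higher value (36.8 and 40.1 FPKM, 0.12), and *TRIM24* followed with -0.053.

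Of 13 coactivator genes, 12 were matched, and 11 of these were lower, against 49.8% of the background genes, and 2 by at least 1.2-fold, against 8.63%. The median difference was -0.14. The lowest were the histone acetyltransferases *CREBBP* (11.7 and 9.48 FPKM, -0.28) and *EP300* (18.7 and 15.3 FPKM, -0.27), and both fell short of 1.2-fold after rescaling to a common sum, with -0.20 each. The p160 coactivators *NCOA1*, *NCOA2* and *NCOA3* had 6.64 and 5.90, 2.81 and 2.46, and 11.6 and 10.7 FPKM, with differences of -0.15, -0.14 and -0.10. *PRMT1*, an arginine methyltransferase, was the most abundant gene of the list and the one with a higher value (174.2 and 197.9 FPKM, 0.18). The second in abundance was *CARM1* (46.0 and 40.2 FPKM, -0.19), and the second highest difference was that of *PPARGC1B* (-0.045). After rescaling to a common sum, 9 coactivators and 8 corepressors were lower, where 35.1% of the background genes were. The difference of *RARA*, -0.18, lay within the range of these cofactor genes.

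**Figure D4:**
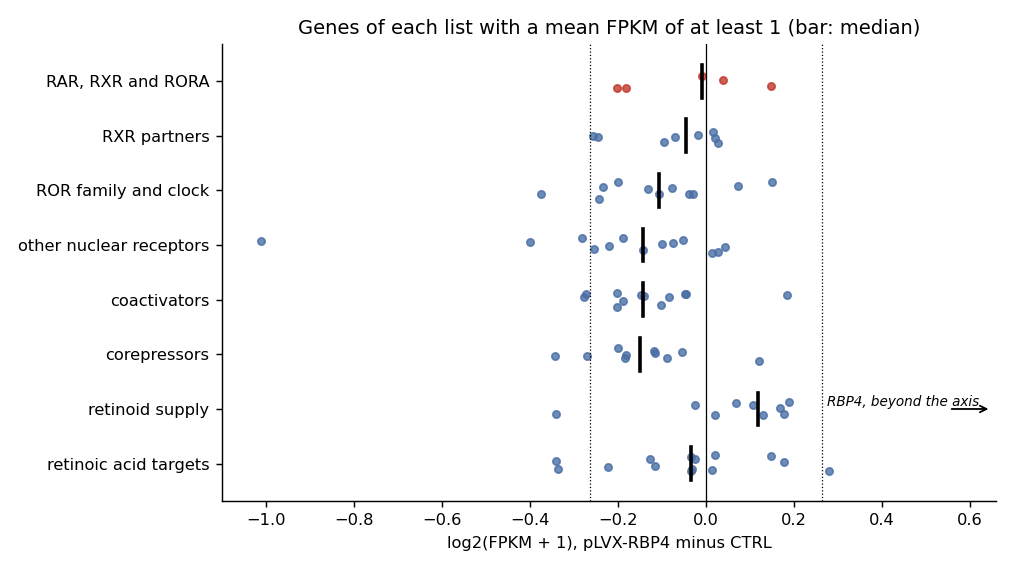
Difference of log2(FPKM + 1) between the pLVX-*RBP4* and CTRL groups for each gene with a mean of 1 FPKM or more, by list, with 1 point per gene, a black bar at the median of the list and dotted lines at a 1.2-fold difference. *RBP4* lies beyond the axis, the medians of coactivators (-0.14) and corepressors (-0.15) lie left of 0, and that of the retinoid supply genes (0.12) lies right of it.

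Genes for the supply of retinoids mostly had higher values among those with a mean of 1 FPKM or more. Of 27 genes for retinol uptake, binding, oxidation and breakdown, 19 were matched and 10 had a mean of 1 FPKM or more. Of these 10, 8 were higher in pLVX-*RBP4* and 2 lower, where 49.8% of the background genes were lower. The 8 include *RBP4* itself, which was higher by design, and so does the median difference of 0.12. The introduced gene *RBP4* was the 1 gene at least 1.2-fold higher, against 11.0% of the background genes, and *DHRS3* was the 1 gene at least 1.2-fold lower, against 8.63%. Without the filter on low values 8 genes were higher and 9 lower. For the breakdown of retinoic acid, *CYP26A1* and *CYP26B1* had a mean below 1 FPKM and *CYP26C1* was not matched. The 10 genes therefore say nothing about that step. *STRA6*, the membrane receptor for RBP4, had 22.9 and 26.0 FPKM (0.18), and *RDH14*, a retinol dehydrogenase, had 14.1 and 16.2 FPKM (0.19). *DHRS3*, which turns retinaldehyde back into retinol, was the lowest of the list (123.2 and 97.0 FPKM, -0.34), with a difference of -0.26 just short of 1.2-fold after rescaling to a common sum, followed by *CRABP2*, which carries retinoic acid to RAR (19.5 and 19.1 FPKM, -0.025). The count of 8 was 5 after rescaling without the gene of the highest value, where 69.9% of the background genes were lower.

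Genes known elsewhere as targets of retinoic acid went both ways. Of 36 such genes, which include *RARB* and 7 genes of the retinoid supply list, 23 were matched and 14 had a mean of 1 FPKM or more. Of the 14, 5 were higher and 9 lower in pLVX-*RBP4*, where 49.8% of the background genes were lower, with a median difference of -0.034. After rescaling to a common sum 9 were higher and 5 lower, where 35.1% of the background genes were lower. After upper quartile scaling 3 were higher and 11 lower, where 56.6% of the background genes were lower. At least a 1.2-fold higher value was found for 1 gene, where 11.0% of the background genes reached it, and a 1.2-fold lower value for 2, where 8.63% did. *RARRES1*, a retinoic acid receptor responder, was the higher one (125.8 and 153.0 FPKM, 0.28), but it fell short of 1.2-fold after upper quartile scaling (0.24) and after rescaling without the gene of the highest value (0.16). *DHRS3* and *CD38* (1.74 and 1.17 FPKM, -0.34) were the lower ones, *DHRS3* not with a common sum. *TGM2*, a transglutaminase, was the most abundant (1588 and 1453 FPKM, -0.13). *CYP26A1*, the retinoic acid hydroxylase usually most responsive to retinoic acid, was listed at 0 in both groups, and *CYP26B1* was below 1 FPKM, with 0.784 and 0.418 FPKM.

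Relatives of *RORA* and genes of the clock that RORA takes part in were compared last. RORA activates *ARNTL*, and the REV-ERB receptors NR1D1 and NR1D2 repress it through the same elements. Of 14 such genes, 12 were matched and 11 had a mean of 1 FPKM or more, of which 9 were lower in pLVX-*RBP4*, against 49.8% of the background genes, and 1 by at least 1.2-fold, close to the 8.63% of the background genes. The median difference was -0.11. *ARNTL* had 10.3 and 11.6 FPKM (0.15) and *NR1D2* 19.7 and 20.8 FPKM (0.073), the 2 genes with higher values, while *NR1D1* was not matched. *PER2* (1.82 and 1.17 FPKM, -0.38) and *CRY1* (4.95 and 4.03 FPKM, -0.24), which repress the clock, were the lowest. *NFIL3* (88.7 and 86.8 FPKM) and *NPAS2* (31.0 and 29.3 FPKM) were the most abundant. *RORB*, a relative of *RORA*, had 0.160 and 0.120 FPKM. After rescaling to a common sum 7 of the 11 genes were lower, where 35.1% of the background genes were. The count was 10 after the same step without the gene of the highest value, where 69.9% of the background genes were lower.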

How the data were processed

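RNA of 6 libraries, 3 per group, was sequenced. The authors mapped filtered reads with TopHat2 on the Sscrofa10.2 genome and ran Cuffdiff, and the values they deposited are FPKM, 1 per gene and group. Tool versions and the annotation release are not given in the sources used here. Both columns of values were used and 0 left out. Symbols came from a table of Ensembl gene names, which matched 10489 of the 17950 identifiers.

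Values were taken as log2(FPKM + 1), and differences were described for the 12382 genes whose mean reached 1 FPKM. A linear model was planned for values per library, and with 1 value per group none was fitted. FPKM keep no fragment counts, so no interval is given. The study lists more mapped reads for each pLVX-*RBP4* library than for any CTRL library, and the part of this in the values was not tested. The calculation was tested on simulated data.

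The receptor genes and the lists were chosen with earlier results of these data known. Named are the matched receptors, and per list the 2 highest and 2 lowest differences, the 2 highest levels and a few genes set by role. Marker genes outside this rule, *RORB* and genes named as not matched were named after their values were seen. Some genes that fall under the rule are not reported here by name. Alternatives were pseudocounts of 0.1 and 0.01 and none, no filter, a mean FPKM of at least 5, a common median, a common upper quartile, and a common sum with and without the gene of the highest value. Changes of 0.1 or more in a log2 value, 10% in a sum and 1.5 times in a count are reported as moves. Python 3.11.15, numpy 2.4.6, pandas 2.3.3 and matplotlib 3.10.9 were used.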

Additional observations from a re-analysis of the deposited data

How the results depend on the processing

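No paired analysis was possible because the table holds 1 value per group, and for the same reason no replicate could be left out. The gene of the highest value held 35.4% of the summed FPKM in CTRL and 25.8% in pLVX-*RBP4*, so a common sum with it and a common sum without it pull the values apart. Rescaling without this gene moved the median of the background genes to -0.11. The differences moved with this shift, to -0.30 for *RARA*, 0.045 for *RARB*, -0.12 for *RARG* and -0.075 for *RXRB*, and the list medians to -0.15 for RXR partners, -0.22 for the ROR and clock genes, -0.26 for other nuclear receptors, -0.25 for coactivators, -0.26 for corepressors, 0.016 for retinoid supply and -0.14 for retinoic acid targets. Under it 669 genes were at least 1.2-fold higher and 2568 lower, against 1364 and 1069 as deposited, and 2138 and 597 with a common sum of all genes. With pseudocounts of 0.1 and 0.01, *RORA* had -0.34 and -0.36 and *RXRG* 0.25 and 1.52, while 95 and 105 genes were at least 2-fold higher and 103 and 112 lower, against 61 and 57. Without a pseudocount *RORA* had -0.37, past the 1.2-fold limit as with the smaller pseudocounts, and 87 genes were at least 2-fold lower. With a mean FPKM of at least 5, 38 genes were at least 2-fold higher and 25 lower, and 602 at least 1.2-fold lower. Without a filter the median of the retinoid supply genes was 0, since weak genes entered the list. Common median and upper quartile scaling moved none of the receptor differences, sums, list medians or counts of genes past a fold limit. Under upper quartile scaling, however, 1072 genes were at least 1.2-fold higher and 1375 lower, so the larger side turned although each count stayed within 1.5 times. Of the 28 nuclear receptor genes 24 were then lower, where 56.6% of the background genes were.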

Other observations

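Among the nuclear receptors that bind steroids, *ESR1*, which encodes estrogen receptor alpha, had 8.90 FPKM in CTRL and 3.91 FPKM in pLVX-*RBP4*, a log2(FPKM + 1) difference of -1.01. It was the 1 gene of 24 other nuclear receptor genes, 20 of them matched and 13 with a mean of 1 FPKM or more, that reached a 2-fold difference, as did 0.953% of the background genes in either direction. After rescaling to a common sum its difference was -0.93, short of 2-fold on the log2(FPKM + 1) scale. The ratio of its values as deposited was 0.439. With a pseudocount of 0.1 its difference was -1.17, and without a pseudocount -1.19. *NR3C1*, the glucocorticoid receptor, had 21.1 and 21.6 FPKM. *ESR2*, the estrogen receptor usually abundant in granulosa cells, had only 0.0331 and 0.0718 FPKM, and *PGR* 0.522 and 0.546 FPKM. In this list 10 of the 13 genes were lower, where 49.8% of the background genes were, with a median of -0.14. The count was 9 after rescaling to a common sum, where 35.1% of the background genes were lower. It was 12 after upper quartile scaling, where 56.6% were, and 13 after rescaling without the gene of the highest value, where 69.9% were. The highest differences were those of *ESRRA* (0.043) and *NR3C1* (0.028). *NR5A1*, which drives steroidogenic genes, and *NR2F6* were the most abundant, with 31.1 and 28.1 FPKM and 37.2 and 37.6 FPKM. *ESR2* and *PGR* were named after their values were seen. No test of these differences was made here, since each group has 1 value. The study itself screened genes with Cuffdiff, and its calls for these genes are not reported here.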
